A study of Mus musculus with 12 samples.

Results

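The meningeal and leptomeningeal barrier genes described here are 10 genes, chosen by symbol: Aldh1a2, Crabp2, Slc6a13, Slc13a4, Slc6a20a, Slc22a6, Slc47a1, Foxc1, Tbx18 and Ptgds. They are 10 of the 46078 genes in the count table, and all 10 were among the 16527 genes with enough reads to be tested. RNA of mouse spinal cord was sequenced in 12 libraries from 4 groups of 3, with C57BL6/cJ given as the host strain. Cord was non-injured in 1 group, and the others had spinal cord injury alone (SCI), SCI with transplanted syngeneic mesenchymal stem cells (MSC, multipotent stromal cells of a genetically matched donor), and SCI with allogeneic MSC (from an unmatched donor). No genetic change is named for any group. The sources used here do not give the time after injury, the age and sex of the mice, the donor strain or how much cord was sampled. The labels also do not say that the 3 samples of a group came from separate animals, so a p-value reflects only how far these samples vary, and that variation may be technical. Grafted and host cells were not separated, so reads of both are summed in the transplanted groups. In bulk RNA, fewer cells of a type and less RNA per cell cannot be told apart.

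The leptomeninges are the pia and the arachnoid, the inner membranes that enclose the cord and the cerebrospinal fluid. Their fibroblasts and arachnoid barrier cells are known for making retinoic acid, a vitamin A derivative that acts through nuclear receptors, and for transporters that move amino acids, sulfate and organic ions between fluid, tissue and blood. They also secrete prostaglandin D2 synthase into the fluid, and forkhead and T-box transcription factors mark their lineage. Several of these genes are also active in perivascular fibroblasts, pericytes, kidney tubules or choroid plexus, and Ptgds is active in oligodendrocytes, so none of them marks the meninges alone.

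Promoter sequences are shown for 4 of the genes that were higher after injury, since these share a direction in the data and their start regions can be compared letter by letter. They come from RefSeq (GRCm38.p6) and cover up to 250 bases before the RefSeq start. They stop where the gene as annotated by GENCODE begins, and are written 5′ to 3′ on the gene's own strand. Capitals mark the GC box, GGGCGG, or its reverse complement CCGCCC. The stretches lie at chr9:71215539-71215788 (plus strand, Aldh1a2), chr6:121300038-121300226 (plus, Slc6a13), chr6:35308132-35308376 (minus, Slc13a4) and chr9:123678886-123679082 (minus, Slc6a20a).
Aldh1a2: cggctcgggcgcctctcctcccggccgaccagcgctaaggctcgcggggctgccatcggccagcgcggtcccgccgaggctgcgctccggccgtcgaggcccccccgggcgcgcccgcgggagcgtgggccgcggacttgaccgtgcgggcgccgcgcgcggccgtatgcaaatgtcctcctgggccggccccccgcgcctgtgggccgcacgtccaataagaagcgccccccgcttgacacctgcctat
Slc6a13: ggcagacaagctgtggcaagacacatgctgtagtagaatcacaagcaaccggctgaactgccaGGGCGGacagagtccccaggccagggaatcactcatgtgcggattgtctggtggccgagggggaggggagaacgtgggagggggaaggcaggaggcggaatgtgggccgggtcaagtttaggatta
Slc13a4: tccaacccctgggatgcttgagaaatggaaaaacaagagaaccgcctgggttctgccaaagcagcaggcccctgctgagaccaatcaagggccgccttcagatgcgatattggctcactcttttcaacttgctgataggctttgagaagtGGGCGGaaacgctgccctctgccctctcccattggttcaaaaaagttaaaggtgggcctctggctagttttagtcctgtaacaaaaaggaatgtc
Slc6a20a: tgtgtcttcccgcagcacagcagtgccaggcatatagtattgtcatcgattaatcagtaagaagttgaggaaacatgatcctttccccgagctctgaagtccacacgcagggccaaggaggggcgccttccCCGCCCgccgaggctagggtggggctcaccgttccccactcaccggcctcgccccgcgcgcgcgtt

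RefSeq windows of 250 bases were matched for 8 of the 10 genes, all but Crabp2 and Slc47a1. A GC box on either strand was found in 4 of the 8 windows, those of Slc6a13, Foxc1, Slc13a4 and Slc6a20a, and in 32.7% of 32851 windows of all genes. Counted from the RefSeq start, it began 187 and 50 bases before it in Slc6a13, 79 in Foxc1, 100 in Slc13a4 and 119 in Slc6a20a. In these 4 genes the RefSeq start lies inside the GENCODE gene, so the printed stretches end before it. The nearer box of Slc6a13 lies inside the GENCODE gene, beyond the printed stretch. The Aldh1a2 window has no GC box but is 77.6% G and C, against a median of 52.4% over all windows. The letters AGGTCA (a retinoid receptor site, in 14% of all windows), TGTTTAC (forkhead, 3.17%), AGGTGTGA (T-box, 1.12%) and TATAAA (the core promoter box, 12.4%) were in 0 of the 8 windows on either strand. CAGCTG, an E-box found in 13% of all windows, was in the Ptgds window alone among the 8. That window lies wholly inside the Ptgds gene as annotated by GENCODE.

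Total counts ranged from 8705942 (allogeneic library 2) to 26151928 (non-injured library 1). Levels are given in CPM, the read count scaled to library size with a correction for composition, and means are ± SD (n = 3). Non-injured library 1 stood apart from the other non-injured libraries: Prx, which encodes periaxin of Schwann cells, was at 0.425 CPM there against 42.8 and 59.1, and Cdh1, which encodes a cadherin of arachnoid barrier cells and epithelia, had 1 count against 92 and 109. The counts of calls against the non-injured group are therefore also given without this library, for the 10 genes and the pathway lists. Non-injured library 3 stood apart in another way. Among the non-injured libraries it was the highest for 50.1% of all genes and the lowest for 37%, where library 1 was at 24.8% and 29.1%. The numbers in the sample titles fall in separate ranges for the syngeneic and the allogeneic group, so any separate handling of these samples and the graft cannot be told apart. The non-injured titles are consecutive too, and lie between that of SCI library 1 and those of the other SCI libraries. Markers of the cells that define cord tissue were present in every library, with summed levels of at least 22330 CPM for oligodendrocytes, 3466 for neurons and 2102 for astrocytes.

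Injury against non-injured cord asked which of these genes differ after a lesion. Aldh1a2, Crabp2, Slc6a13, Slc13a4 and Slc6a20a were higher in injured cord and passed the test, with log2 fold changes from 1.04 to 3.84. A gene was called when its edgeR quasi-likelihood p, adjusted by the Benjamini-Hochberg method over all genes tested, was below 0.05. So 5 of the 10 genes were called higher and 0 lower, while 16.6% of all genes tested were called higher and 9.26% lower. Crabp2 reached the low-count filter's level of 0.57 CPM in no non-injured library, and neither did Slc22a6 and Slc47a1, so these 3 were tested only through the groups where they are high. Of the other 7 genes 4 were called higher, against 14.6% of the 15882 genes with at least 1 non-injured library at that level. The libraries of the 2 groups did not overlap, with injury higher, for 8 of the 10 genes (all but Foxc1 and Ptgds) and for 26.3% of all genes. The median log2 fold change was 2.44 over the 10 genes (2.06 without non-injured library 1) and 0.01 over all genes. Both the 8 and the median include Crabp2, Slc22a6 and Slc47a1 (log2 fold changes 3.84, 4.21 and 2.38), tested only through the injured groups. Without non-injured library 1, Aldh1a2 alone was still called (log2 fold change 2.38, adjusted p 0.0403). Crabp2 was at 3.65 (adjusted p 0.0546), Slc13a4 at 2.60 (0.0659), Slc6a13 at 2.36 (0.0609) and Slc6a20a at 0.96 (0.134). In that fit 11.4% of all genes were called higher, a share near the 1 of 10, and 5.34% lower. Calls in either direction were 16.8% of all genes, against 25.8% with the library. The 5 genes that were not called remained so in that fit: Slc22a6 was at 3.61 (adjusted p 0.257), Slc47a1 at 1.76 (0.491), Tbx18 at 0.92 (0.267), Foxc1 at 0.72 (0.309) and Ptgds at -0.43 (0.467). Without non-injured library 3 the same 5 genes were called as with it, and 23.7% of all genes in either direction (71.5% of these calls were higher). Without SCI library 3, 3 of the 10 were called, and 16.8% of all genes in either direction (75.1% of these calls were higher). With no filter on low counts 2 of the 10 were called, among 3788 genes called in either direction, against 4266 with the filter.

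**Figure D1:**
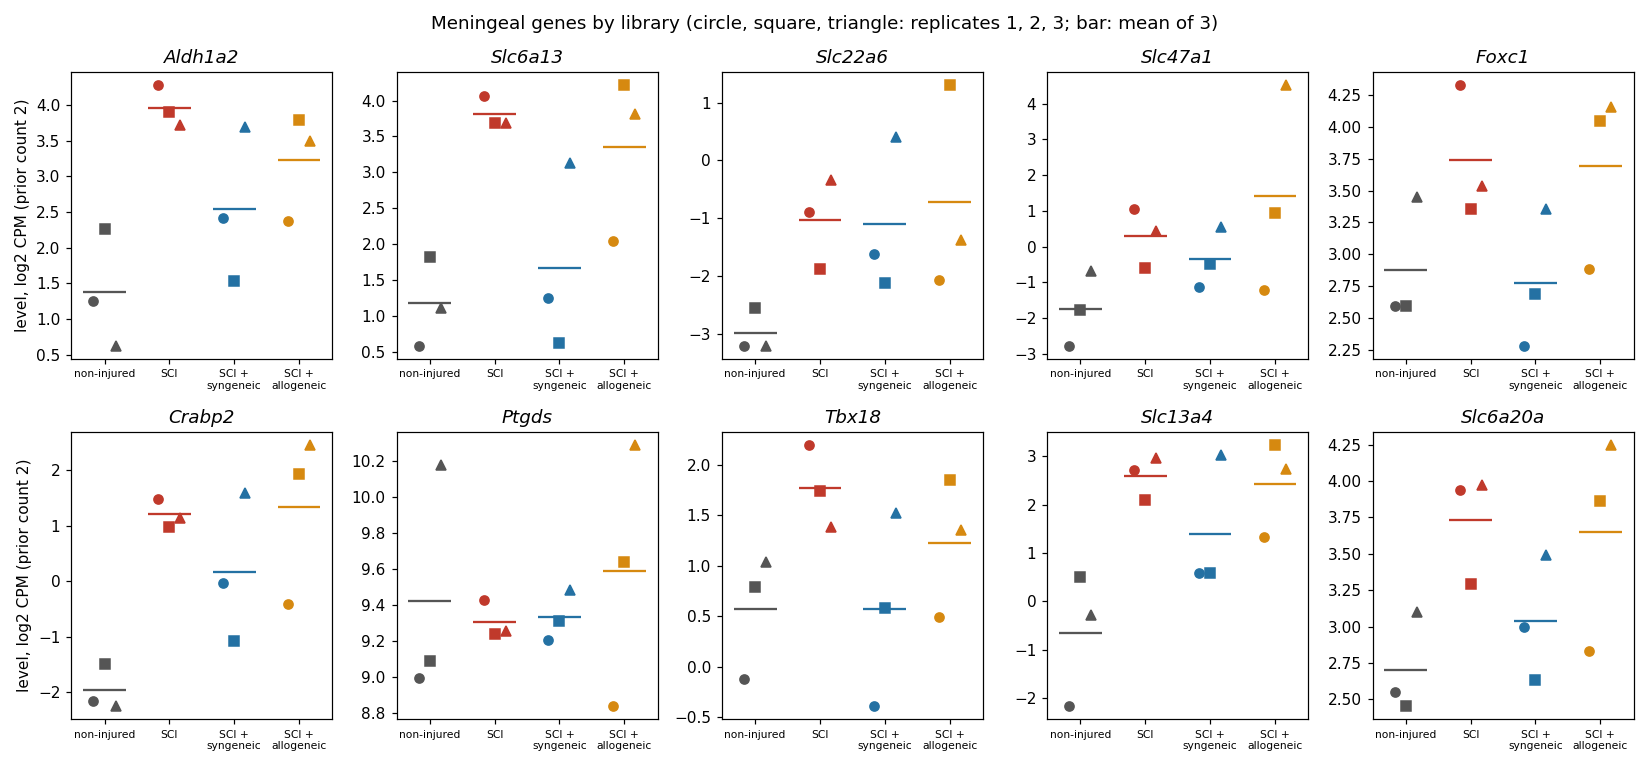
Level of each of the 10 genes in every library, as log2 CPM with a prior count of 2 on the vertical axis (the scale differs between panels), by group on the horizontal axis. Symbols are the 3 libraries of a group and bars their mean. The SCI libraries lie above all non-injured libraries in 8 panels, and syngeneic library 3 (triangle) is the highest of its group in all 10.

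The 2 retinoid genes encode an enzyme that makes retinoic acid and a protein that carries it to its receptor. Aldh1a2 (chr9:71215789-71296243 on GRCm38, plus strand, 14 exon blocks) encodes a retinaldehyde dehydrogenase, which oxidises retinaldehyde to retinoic acid. Its CPM was 2.28, 4.68 and 1.44 in the non-injured libraries, 19.3, 14.8 and 13 after SCI, 5.24, 2.78 and 12.8 with syngeneic MSC, and 5.06, 13.8 and 11.2 with allogeneic MSC. All SCI libraries lay above every library of the non-injured and syngeneic groups. The log2 fold change of SCI over non-injured cord was 2.51 (SE 0.571, adjusted p 0.00876), from means of 15.7 ± 3.26 and 2.80 ± 1.69 CPM.

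Crabp2 (chr3:87948666-87953376, plus strand) encodes a small cytoplasmic protein that hands retinoic acid to its nuclear receptors. The non-injured libraries held 0.116, 0.250 and 0.103 CPM, 9 counts in all. SCI libraries were at 2.70, 1.87 and 2.10, syngeneic ones at 0.874, 0.368 and 2.89, and allogeneic ones at 0.649, 3.72 and 5.35. Every library of the 3 injured groups lay above the highest non-injured library. SCI exceeded non-injured cord by a log2 fold change of 3.84 (SE 0.949, adjusted p 0.0129), the largest among the 5 called genes.

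Among the 5 transporters, Slc6a13 (chr6:121300227-121337733, plus strand) encodes a carrier of GABA and taurine of meninges, liver and kidney. Its CPM was 1.39, 3.44 and 2.05 in non-injured cord, 16.7, 12.7 and 12.8 after SCI, 2.27, 1.43 and 8.67 with syngeneic MSC, and 4.02, 18.5 and 13.9 with allogeneic cells. The SCI libraries were close together and above all non-injured and all syngeneic libraries. The log2 fold change over non-injured cord was 2.64 (SE 0.671, adjusted p 0.0146).

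Slc13a4 (chr6:35267957-35308131, minus strand) encodes a sodium and sulfate cotransporter. It was at 0.116, 1.31 and 0.718 CPM in non-injured cord, 6.50, 4.17 and 7.71 after SCI, 1.40, 1.39 and 8.03 with syngeneic MSC, and 2.40, 9.25 and 6.55 with allogeneic cells. As for Crabp2, the lowest library of each injured group exceeded the highest non-injured library. SCI was higher than non-injured cord by a log2 fold change of 3.19 (SE 0.859, adjusted p 0.0193), and non-injured library 1 was the lowest of the 12.

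Slc6a20a (chr9:123634770-123678885, minus strand) encodes a transporter of proline and related imino acids. It was at 5.76, 5.37 and 8.46 CPM in non-injured cord, 15.2, 9.66 and 15.6 after SCI, 7.87, 6.09 and 11.1 with syngeneic MSC, and 7.0, 14.4 and 18.9 with allogeneic cells. The SCI libraries lay above the non-injured ones with a small gap. The log2 fold change was 1.04 (SE 0.351, adjusted p 0.0477), and the call was lost when DESeq2's size factors replaced edgeR's. Its exons share 563 bases with Gm17120 and 22 each with Gm17200 and Ccr9, all on the other strand. Gm17120 had at most 2 counts in any library and Ccr9 at most 7, and the near-identical neighbour Slc6a20b had 0 or 1. The sources used here do not say how the counting treated strand and reads that match several genes.

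Slc22a6 (chr19:8618039-8628299, plus strand) encodes an organic anion exchanger best known from the kidney. It was the scarcest of the 10 genes, with 0, 1 and 0 counts in the non-injured libraries, 7, 3 and 12 after SCI, 5, 3 and 19 with syngeneic MSC, and 2, 21 and 6 with allogeneic cells. The counts of 0 allow up to 0.116 and 0.154 CPM in non-injured libraries 1 and 3, taking 3 counts as the limit (counting error only). All libraries of the injured groups lay above the non-injured ones. Scaled to depth, the 22 SCI counts against 1 gave a ratio of 25.9, with a 95% interval for counting error from 4.18 to 1070, and the test did not pass (adjusted p 0.111). DESeq2 called the gene in this comparison (adjusted p 0.0222).

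Slc47a1 (chr11:61343401-61378345, minus strand) encodes a proton-driven extruder of organic cations. It was at 0.0387, 0.187 and 0.513 CPM in non-injured cord, 1.96, 0.549 and 1.25 after SCI, 0.350, 0.613 and 1.35 with syngeneic MSC, and 0.324, 1.81 and 22.9 with allogeneic cells. Allogeneic library 3, with 497 counts, stood far above the other 11 libraries. SCI libraries lay just above the non-injured ones, and the difference did not pass the test (log2 fold change 2.38, SE 1.47, adjusted p 0.265).

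The 2 transcription factors did not pass the test after injury. Foxc1 (chr13:31806633-31812476, plus strand, 1 exon) is a forkhead factor that the developing meninges require. Its CPM was 5.95, 5.93 and 10.8 in non-injured cord, 20.0, 10.1 and 11.5 after SCI, 4.76, 6.33 and 10.1 with syngeneic MSC, and 7.26, 16.4 and 17.7 with allogeneic cells. Non-injured library 3 lay within the range of the SCI group, and the log2 fold change was 0.87 (SE 0.401, adjusted p 0.133). Tbx18 (chr9:87702800-87731260, minus strand) is a T-box factor of mural and leptomeningeal cells. It was at 0.812, 1.62 and 1.95 CPM in non-injured cord, 4.47, 3.24 and 2.49 after SCI, 0.656, 1.39 and 2.76 with syngeneic MSC, and 1.3, 3.50 and 2.44 with allogeneic cells. SCI libraries were above the non-injured ones, with a log2 fold change of 1.23 (SE 0.505, adjusted p 0.095). Its exons share 970 bases with D030062O11Rik on the other strand, which had at most 2 counts in any library.

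Ptgds (chr2:25466709-25470046, minus strand) encodes the lipocalin-type synthase of prostaglandin D2, a major protein of cerebrospinal fluid. Its CPM was 509, 545 and 1160 in non-injured cord, 688, 604 and 611 after SCI, 591, 635 and 716 with syngeneic MSC, and 458, 797 and 1250 with allogeneic cells. The groups overlapped, and the SCI and syngeneic groups lay inside the range of the non-injured group. The log2 fold change of SCI over non-injured cord was -0.22 (SE 0.352, 95% interval -0.99 to 0.55, adjusted p 0.697), the only one of the 10 below 0 (9 were above 0, as were 50.8% of all genes), and it was 0.26 without non-injured library 3. That library, the highest of its group for Ptgds, also had the highest summed level of 6 oligodendrocyte markers, 77770 CPM where libraries 1 and 2 had 40440 and 32040. The part of oligodendrocytes in the Ptgds level was not tested.

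Each transplanted group was also set against the same 3 non-injured libraries, which all 3 comparisons with non-injured cord share. With allogeneic cells, Aldh1a2, Crabp2, Slc6a13, Slc13a4, Slc6a20a and Slc47a1 were called higher than in non-injured cord. That is 6 of the 10 genes, against 16.7% of all genes tested (8.17% were called lower), and libraries did not overlap for 5 of the 10 and 21.1% of all genes. Crabp2, Slc47a1 and Slc22a6 entered the test through the injured groups alone. Of the 7 genes that did not, 4 were called higher (14.6% of the 15882 genes of that kind). The 5 without overlap include Crabp2 and Slc22a6. Log2 fold changes were 4.40 for Crabp2 (SE 0.937, adjusted p 0.00575), 3.15 for Slc13a4 (SE 0.866, adjusted p 0.0205), 2.42 for Slc6a13 (SE 0.674, adjusted p 0.022) and 1.85 for Aldh1a2 (SE 0.573, adjusted p 0.0351). Slc6a20a was at 1.04 (SE 0.352, adjusted p 0.0499) and lost its call with DESeq2's size factors. Slc47a1 was at 5.17 (SE 1.36, adjusted p 0.0169), a value carried by allogeneic library 3: without it the log2 fold change was 2.02 and the adjusted p 0.208. Slc22a6, with 29 counts against 1, gave a ratio of 38.7 (95% counting interval 6.42 to 1580) and an adjusted p of 0.0514. Without non-injured library 1 Crabp2 alone was called. In that fit 12% of all genes were called higher, a share near the 1 of 10, and 4.44% lower (16.4% in either direction). Crabp2 was also the only one called without allogeneic library 3, with 18.3% of all genes called in either direction (73.6% of these calls were higher). With no filter on low counts Crabp2 was again alone, among 3818 genes called, against 4112 with the filter. Without allogeneic library 2 Crabp2 and Slc47a1 were called, and 15.7% of all genes in either direction. Without non-injured library 3 Crabp2, Slc13a4, Slc47a1 and Slc6a20a were called, and 26% of all genes in either direction. Scaling by library totals alone called 7 of the 10 and 24.8% of all genes in either direction. Of all calls 77.4% were then higher, against 67.2% here.

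With syngeneic cells, 0 of the 10 genes were called against non-injured cord by edgeR, where 4.92% of all genes were called higher and 0.424% lower. The smallest adjusted p was 0.101, for Crabp2, whose log2 fold change was 3.08 (SE 0.983). At an unadjusted p below 0.05, 4 genes were higher (Aldh1a2, Slc22a6, Crabp2 and Slc13a4), against 13.5% of all genes. EdgeR again called 0 without non-injured library 1. DESeq2 called 3 of the 10, namely Crabp2 (adjusted p 0.00662), Slc13a4 (0.0326) and Slc22a6 (0.0385), and 8.53% of all genes in either direction. These 3 are also the genes whose syngeneic and non-injured libraries did not overlap, against 13.7% of all genes. Crabp2 and Slc22a6 had no non-injured library at the filter's level, so both were tested only through the injured groups. The shares of all genes given here are therefore no yardstick for Crabp2 and Slc22a6. Foxc1, Tbx18, Slc6a20a and Ptgds had log2 fold changes between -0.19 and 0.35 there, each with a 95% interval that includes 0 (Foxc1 -0.99 to 0.78, Tbx18 -1.03 to 1.26, Slc6a20a -0.42 to 1.12, Ptgds -0.96 to 0.58).

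**Figure D2:**
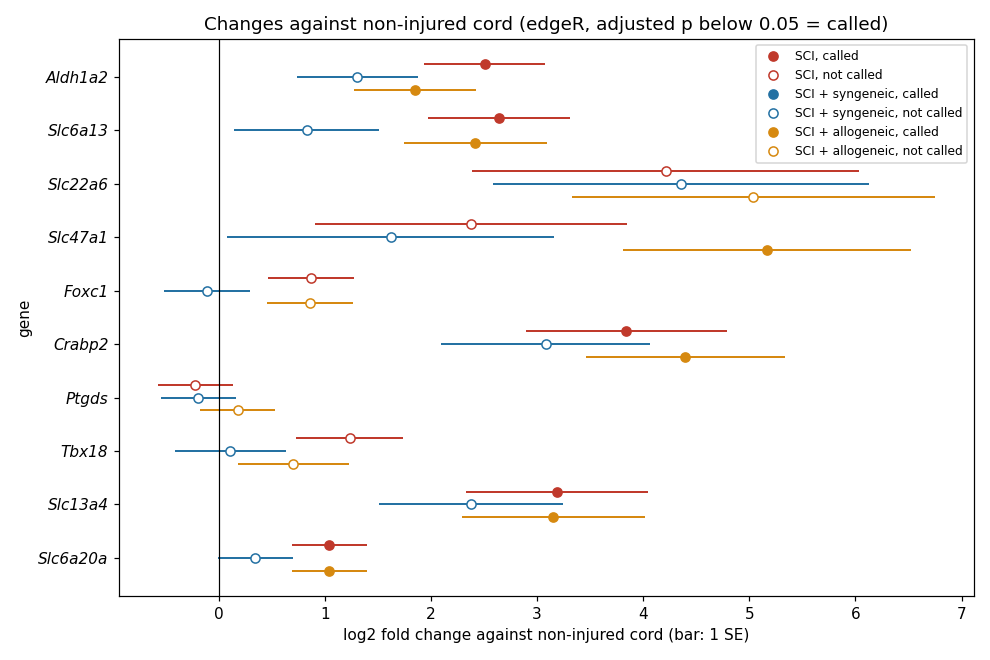
Log2 fold change of each gene against non-injured cord in the 3 injured groups (horizontal axis), with a bar of 1 SE and the genes on the vertical axis. Filled points were called, 5 for SCI, 0 with syngeneic cells and 6 with allogeneic cells; Ptgds lies near 0 in all 3.

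The transplanted groups were then compared with SCI alone and with each other, which is the question of the study's title. These 3 comparisons share libraries as well, so their values are given side by side and not counted as independent. No gene of the 10 was called in any of them. With syngeneic cells against SCI, 0 of the 10 were called, with 0.0363% of all genes called (6 genes), and DESeq2 also called 0 of the 10. The lower levels with syngeneic cells had the largest size for Slc6a13, at a log2 fold change of -1.81 (SE 0.64, adjusted p 0.314), then Aldh1a2 at -1.20 (SE 0.534, adjusted p 0.365), Tbx18 at -1.12 (SE 0.502, adjusted p 0.365) and Foxc1 at -0.98 (SE 0.402, adjusted p 0.34). These 4 were below an unadjusted p of 0.05, as 7.96% of all genes were on the lower side. All syngeneic libraries lay below all SCI libraries for Aldh1a2 and Slc6a13, 2 of the 10, against 11.5% of all genes. The median log2 fold change was -0.78 over the 10 genes and 0 over all genes.

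The outcome turned on syngeneic library 3. It held 12.8 CPM of Aldh1a2, 2.89 of Crabp2 and 8.03 of Slc13a4, close to, within or above the range of the SCI libraries. For Slc6a13 it held 8.67 CPM, below every SCI library (12.7 to 16.7). Syngeneic libraries 1 and 2 lay below every SCI library for all 4 genes. Without library 3, Slc6a13 was called lower with syngeneic cells (log2 fold change -2.92, adjusted p 0.0268), Aldh1a2 was at -1.97 (adjusted p 0.0545), and 783 genes were called in place of 6. In that fit the 2 remaining syngeneic libraries are the low ones of the 3, so the value describes those 2 libraries.

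With allogeneic cells against SCI, 0 of the 10 genes were called by edgeR or DESeq2, with 0.188% of all genes called (31 genes). The median log2 fold change was -0.01 over the 10 and 0 over all genes. Slc47a1 alone was below an unadjusted p of 0.05 (log2 fold change 2.79, SE 1.12, p 0.0288, adjusted p 1), against 1.77% of all genes on the higher side, and it was at -0.36 without allogeneic library 3. Intervals were wide: the 95% interval was -1.82 to 0.50 for Aldh1a2, -1.56 to 1.11 for Slc6a13, -0.95 to 2.06 for Crabp2 and -1.62 to 1.55 for Slc13a4. Slc6a20a had the narrowest, -0.76 to 0.75 around -0.001.

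Between the 2 grafts, 0 of the 10 genes were called by edgeR or DESeq2, with 0.611% of all genes called (101 genes). All 10 log2 fold changes of allogeneic over syngeneic cells were above 0, where 47.3% of all genes were, and their median was 0.74 against -0.02 for all genes. Slc47a1 (3.54, adjusted p 0.248), Slc6a13 (1.59, adjusted p 0.297) and Foxc1 (0.97, adjusted p 0.307) were below an unadjusted p of 0.05, against 10.1% of all genes on the higher side. The libraries of the 2 groups overlapped for all 10 genes, where 7.03% of all genes were higher and 5.19% lower with no overlap. Without syngeneic library 3, Slc6a13 was called (log2 fold change 2.70, adjusted p 0.0243) and 1031 genes were called in place of 101. Without allogeneic library 3, Slc47a1 was at 0.41 and Ptgds at -0.015, and without allogeneic library 2 Slc22a6 was at -1.11, so those 2 directions rest on 1 library each.

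**Figure D3:**
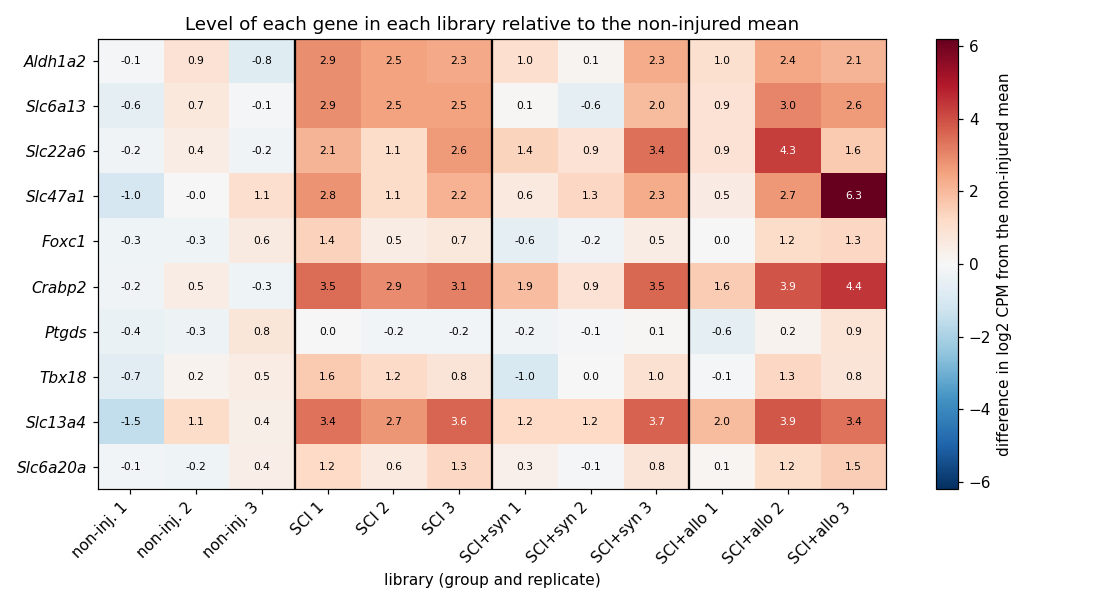
Each gene (vertical axis) in each library (horizontal axis, black lines between groups) as the difference in log2 CPM from the non-injured mean, printed in the cell and given by its colour. Syngeneic libraries 1 and 2 and allogeneic library 1 are pale next to the other injured libraries, and Slc47a1 in allogeneic library 3 is the darkest cell, at 6.3.

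Within the transplanted groups the 10 genes moved library by library. Syngeneic library 3 was the highest of its group for 10 of the 10 genes, where it was the highest for 31.5% of all genes. Allogeneic library 1 was the lowest of its group for 10 of the 10, where it was the lowest for 39.9% of all genes. The median range between the lowest and highest library, on the log2 CPM scale, was 2.03 with syngeneic and 1.68 with allogeneic cells, against 1.17 in non-injured cord and 0.75 after SCI. Over all genes the same medians were 0.40, 0.44, 0.41 and 0.23. In the SCI group, library 1 was the highest for 7 of the 10 (32.3% of all genes) and library 2 the lowest for 8 (30.1% of all genes).

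The mean level of the 10 genes, as the log2 difference from the non-injured mean, was 2.18, 1.5 and 1.90 in the SCI libraries, 0.48, 0.35 and 1.95 with syngeneic MSC and 0.63, 2.40 and 2.49 with allogeneic cells. The non-injured libraries were at -0.52, 0.29 and 0.23. These means include Crabp2, Slc22a6 and Slc47a1, which were tested only through the injured groups. The means of the injured groups are therefore no test of a difference from non-injured cord. A list of 8 general fibroblast genes (Col1a1, Col1a2, Col3a1, Dcn, Lum, Pdgfra, Fn1 and Postn) was also low in syngeneic libraries 1 and 2 and in allogeneic library 1: its mean was 3.50, 3.17 and 2.99 after SCI, 0.58, 0.90 and 2.94 with syngeneic cells, 1.87, 3.46 and 3.24 with allogeneic cells, and -0.65, 0.23 and 0.43 in non-injured cord. Its summed level was 171 to 299 CPM in non-injured cord, 1434 to 2005 after SCI, 343 to 1343 with syngeneic and 681 to 1889 with allogeneic cells. All 8 of its genes were called higher than in non-injured cord after SCI (7 without non-injured library 1) and with allogeneic cells (2 without it), and 2 with syngeneic cells, Fn1 and Postn (0 without it). In the same order, 16.6%, 16.7% and 4.92% of all genes were called higher (11.4%, 12% and 2.06% without that library). Microglia and macrophage markers had means of 3.29, 3.51 and 3.18 after SCI, 2.34, 1.95 and 3.38 with syngeneic cells, 3.19, 3.78 and 3.83 with allogeneic cells, and -0.06, -0.20 and 0.26 in non-injured cord. Astrocyte markers were at 1.06, 1.20 and 1.18 after SCI, 0.75, 0.56 and 1.12 with syngeneic cells, 1.04, 1.28 and 1.01 with allogeneic cells, and -0.085, -0.18 and 0.27 in non-injured cord. In the syngeneic group library 3 was thus the highest for all 3 lists, as it was for the 10 genes. The part of fibroblasts, microglia and macrophages or astrocytes in the levels of the 10 genes was not tested.

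For each gene the groups can be ordered by mean level. SCI was highest, then allogeneic, syngeneic and non-injured, for Aldh1a2, Slc6a13, Tbx18, Slc13a4 and Slc6a20a. The allogeneic group came first for Slc22a6, Slc47a1, Crabp2 and Ptgds, a place that rests on 1 library for each. Without allogeneic library 2 the log2 fold change against SCI was -0.97 for Slc22a6, and without allogeneic library 3 it was -0.36 for Slc47a1, -0.11 for Crabp2 and -0.006 for Ptgds. Non-injured cord was lowest for 8 genes, all but Foxc1 (syngeneic lowest) and Ptgds (SCI lowest). Neighbours in these orders overlapped in their libraries, except the lowest step, from the non-injured group to the next, for Slc22a6, Crabp2 and Slc13a4.

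Levels can be compared between genes only per length, here as CPM per kilobase of exon. Ptgds was far above the rest, with group means from 385 to 507 CPM per kilobase. The highest group mean of any other gene was 6.93 ± 1.44, for Aldh1a2 after SCI, followed by Slc6a13 after SCI at 4.84 ± 0.779. In non-injured cord Slc6a20a (1.60 ± 0.412), Foxc1 (1.3 ± 0.482) and Aldh1a2 (1.24 ± 0.745) came next after Ptgds, with Slc6a13 at 0.789 ± 0.359, Tbx18 at 0.310 ± 0.124 and Slc13a4 at 0.158 ± 0.132. Crabp2 (0.118 ± 0.0616), Slc47a1 (0.0728 ± 0.0717) and Slc22a6 (0.00523 ± 0.00905) were the lowest. The neighbouring genes Slc6a20a, Foxc1 and Aldh1a2 differed by less than their SDs.

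**Figure D4:**
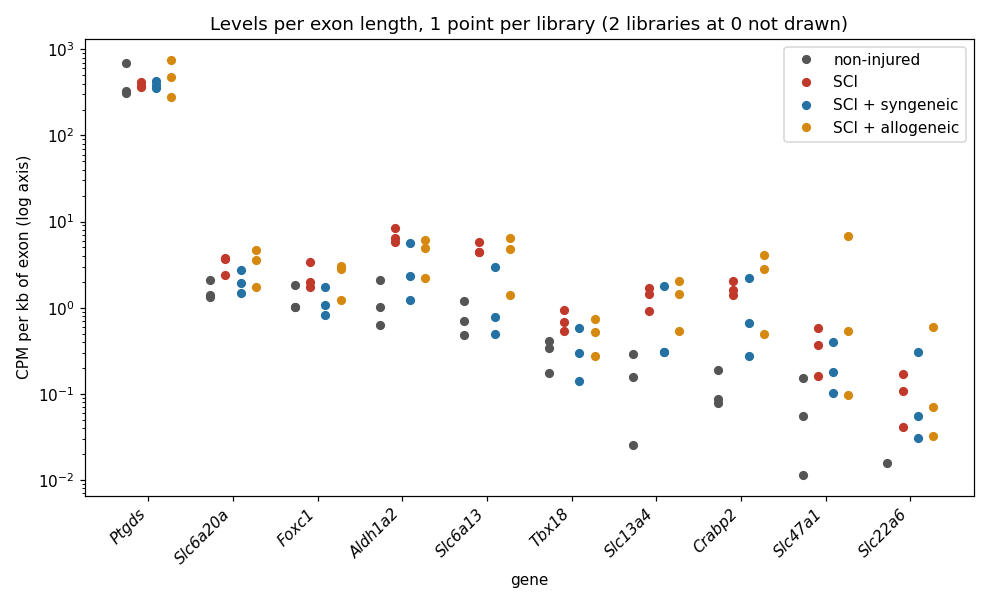
CPM per kilobase of exon (vertical log axis) for each of the 10 genes (horizontal axis, ordered by the non-injured mean), 1 point per library, coloured by group; 2 non-injured libraries of Slc22a6 at 0 are not drawn. Ptgds lies between 385 and 507 in its group means and every other group mean lies at 6.93 or below.

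Genes of the same pathways were counted next, from lists that leave the 10 genes out. Of 19 retinoid genes 17 were tested, and 7 were called higher after SCI and 0 lower (16.6% of all genes were called higher), with a list median of 0.60 (log2) against 0.01 over all genes. Dhrs3, which turns retinaldehyde back to retinol, had a log2 fold change of 2.18 (47.2 ± 10.1 against 10.4 ± 1.32 CPM, adjusted p 0.00358), and Cyp26b1, which degrades retinoic acid, was at 1.76 (adjusted p 0.00875). Dhrs9, a retinol dehydrogenase tested only through the injured groups (no non-injured library reached 0.57 CPM), had 32 counts against 1, a ratio of 37.7 (95% counting interval 6.29 to 1530, adjusted p 0.00362). Also called, and named after their values were seen, were the retinol dehydrogenase Rdh10 (0.79), the retinol carrier of blood Rbp4 (1.38) and the receptor Rarg (0.60). Aldh1a1 and Aldh1a3, of the same family as Aldh1a2 and named after their values were seen, were not called after SCI. Aldh1a1 was at 290 ± 18.5 against 239 ± 71.1 CPM (log2 fold change 0.28, adjusted p 0.336). Aldh1a3 was at 3.84 ± 3.29 against 0.79 ± 0.54 CPM (log2 fold change 2.31, adjusted p 0.0522). Without non-injured library 1 the count after SCI was 5, against 11.4% of all genes called higher. With allogeneic cells 7 of the 17 were called higher than in non-injured cord, against 16.7% of all genes (4, against 12%, without that library). Of the 16 with a non-injured library at the filter's level, 6 were called higher after SCI and 6 with allogeneic cells (14.6% of all such genes in each). With syngeneic cells 0 were called, against 4.92% of all genes called higher, and 0 were called in any comparison among the injured groups.

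Of 15 further barrier and solute transporters 12 were tested and 2 were called higher after SCI, a share near the 16.6% of all genes, with a median of -0.04. They were Slc6a12, a carrier of betaine and GABA (log2 fold change 2.78, 1.15 ± 0.434 against 0.157 ± 0.0343 CPM, adjusted p 0.00986), and Abcc4, an export pump of organic anions (0.52, adjusted p 0.039). Slc6a12 entered the test through the injured groups alone, and of the 11 genes that did not, 1 was called. Without non-injured library 1 Slc6a12 alone was called. With allogeneic cells 1 of the 12 was called higher, Abcc4 (0.56, adjusted p 0.03), against 16.7% of all genes. In that comparison without non-injured library 1 Abcc4 was not called (adjusted p 0.0904), and Slc22a8, an organic anion transporter named after its value was seen, was called lower (log2 fold change -0.62, adjusted p 0.049; -0.45 and 0.122 with the library). With syngeneic cells 0 of the 12 were called.

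Of 18 leptomeningeal and arachnoid fibroblast genes, 14 were called higher after SCI, with a median of 1.69, against 16.6% of all genes. The count was 10 without non-injured library 1, against 11.4% of all genes called higher in that fit. Fmod, a collagen-binding proteoglycan, had a log2 fold change of 4.11 (180 ± 25.8 against 10.5 ± 2.72 CPM, adjusted p 0.000587). Wnt6, a secreted signalling protein and the only gene of the list tested through the injured groups alone, was at 3.85 (adjusted p 0.00879), Lum, another collagen-binding proteoglycan, at 3.75 (adjusted p 0.00948) and Igf2, a growth factor, at 3.73 (adjusted p 0.0104). With allogeneic cells 14 of 18 were called higher than in non-injured cord (16.7% of all genes). With syngeneic cells 3 were (4.92% of all genes), namely Fmod, S100a6 and Itih5, named after their values were seen. These counts were 8 and 0 without non-injured library 1, against 12% and 2.06% of all genes. No gene of the list was called between the injured groups. Lum is also in the fibroblast list.

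Of 16 mesenchymal transcription factors 12 were tested, and Tcf21 was at 0 in every library. After SCI 2 were called higher, a share near the 16.6% of all genes: Osr1, tested only through the injured groups, with 132 counts against 2 (ratio 77.7, 95% counting interval 21.1 to 648, adjusted p 0.00584), and Zic2 (log2 fold change 0.92, adjusted p 0.0313). The list median was 1.08, and without non-injured library 1 the count was 1. With allogeneic cells 6 of the 12 were called higher, against 16.7% of all genes (4 of the 9 that had a non-injured library at the filter's level), and Heyl, a Notch target of mural cells named after its value was seen, was called lower (-0.72, adjusted p 0.0449). The count with allogeneic cells was 1 without non-injured library 1. With syngeneic cells 0 of the 12 were called.

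In the prostaglandin D2 pathway 4 of 7 tested genes were called higher after SCI (16.6% of all genes were), with a median of 1.53, although Ptgds itself was not. Ptgs2 and Ptgs1, the cyclooxygenases that make the precursor, were at log2 fold changes of 3.03 (adjusted p 0.000358) and 1.47 (adjusted p 0.000114). Hpgds, the other prostaglandin D2 synthase, known from immune cells, was at 2.56 (33.4 ± 1.38 against 5.70 ± 1.54 CPM, adjusted p 0.000288), and Hpgd, which degrades prostaglandins, at 1.56 (adjusted p 0.000559). With allogeneic cells 4 and with syngeneic cells 3 of the 7 were called higher than in non-injured cord, against 16.7% and 4.92% of all genes. The counts were 4 after SCI, 4 with allogeneic and 2 with syngeneic cells when non-injured library 1 was left out.

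**Figure D5:**
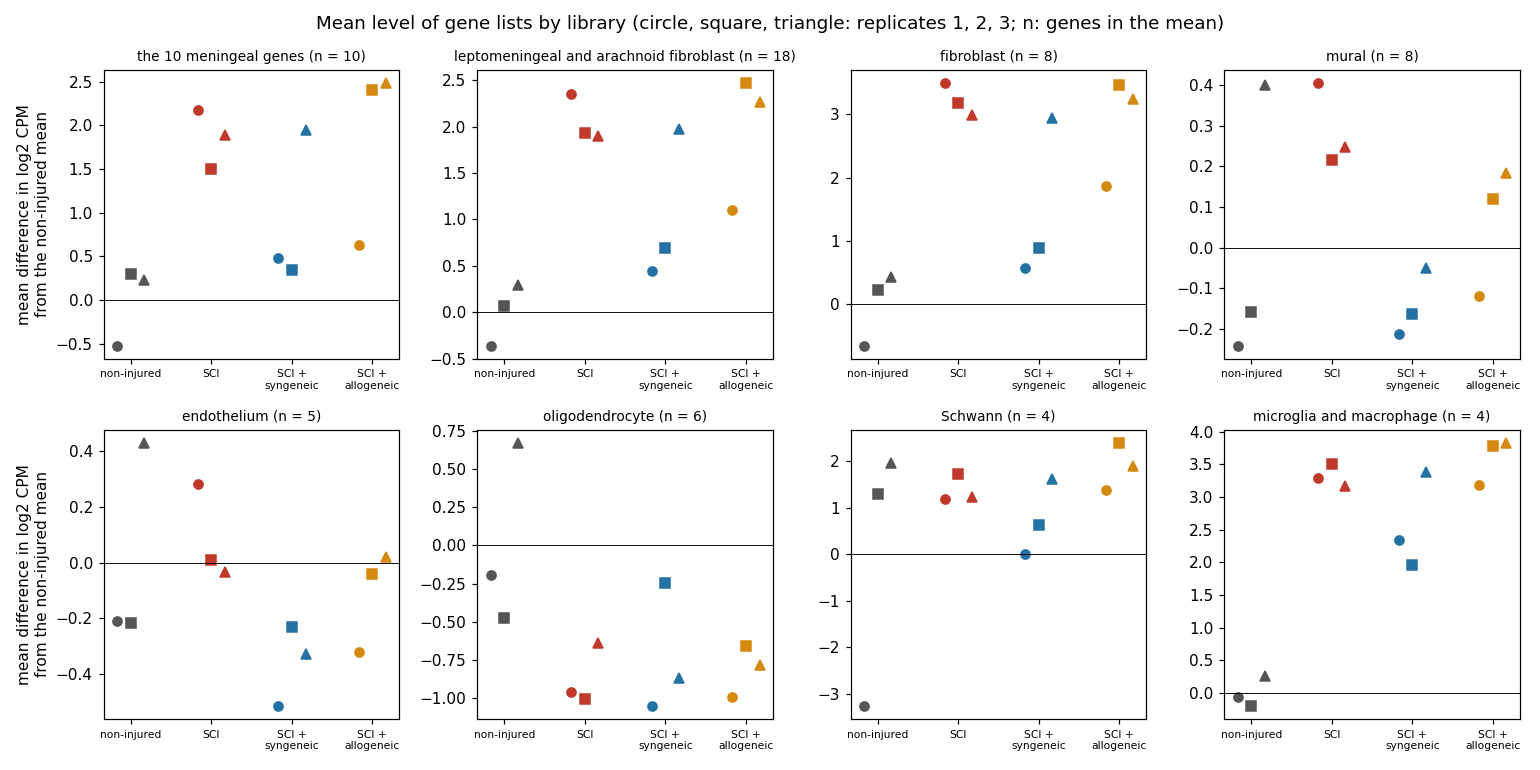
Mean difference in log2 CPM from the non-injured mean (vertical axis, scale differs between panels) for the 10 genes and for 7 other lists, by group (horizontal axis); symbols are the 3 libraries. Syngeneic libraries 1 and 2 lie low for the 10 genes (0.48 and 0.35), for leptomeningeal and arachnoid fibroblast genes (0.44 and 0.69) and for fibroblast genes (0.58 and 0.90), and non-injured library 1 lies at -3.26 for Schwann cell genes. The mean of the 10 genes includes Crabp2, Slc22a6 and Slc47a1, which were tested only through the injured groups.

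Markers of other cell types that hold some of the 10 genes were measured beside them. Choroid plexus is an epithelium with several of these transporters. Of its 6 markers, Otx2 was at 0 and Ttr, its most abundant transcript, at 0 to 5 counts in every library. Of 3 tested markers 1 (Folr1, tested only through the injured groups) was called higher after SCI. Kl was at 3.07 ± 2.22 CPM in non-injured cord and 4.45 ± 1.68 after SCI. Clic6 was at 1.425 ± 0.705 CPM in non-injured cord and 1.636 ± 0.712 after SCI. Both were named after their values were seen and were not called. The 6 choroid plexus markers summed to 1.64 to 7.25 CPM in non-injured cord, 5.90 to 8.58 after SCI, 3.55 to 7.58 with syngeneic and 4.40 to 8.17 with allogeneic cells. Of 8 mural cell markers 3 were called higher after SCI (Pdgfrb, Notch3 and Cspg4), 1 without non-injured library 1, and they summed to 310 to 506 CPM in non-injured cord, 358 to 437 after SCI, 311 to 350 with syngeneic and 333 to 376 with allogeneic cells. Of 5 endothelial markers 0 were called after SCI.

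Oligodendrocyte markers were lower after SCI in 5 of 6 cases (2 without non-injured library 3), and 2 of 4 neuron markers were lower. Astrocyte markers (4 of 4) and microglia and macrophage markers (4 of 4) were higher. When non-injured library 1 was left out, 4 oligodendrocyte and 2 neuron markers were lower, and 3 astrocyte and 4 microglia and macrophage markers were higher. Of 4 Schwann cell markers 1 (Egr2) was higher, and of 6 mesenchymal stromal markers 2 were higher (Prrx1 and Lepr) and 1 lower (Thy1). The mean level of the Schwann cell markers, as the log2 difference from the non-injured mean, was -3.26 in non-injured library 1 and 1.3 and 1.95 in its group's libraries 2 and 3. It was 1.20 to 1.72 after SCI, 0.015 to 1.62 with syngeneic and 1.38 to 2.39 with allogeneic cells. The part of each of these cell types in the levels of the 10 genes was not tested.

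The genes most like the group were sought by the root mean square (RMS) difference between a gene's standardised profile over the 12 libraries and the mean profile of the 10 genes. Of 13705 genes compared, the closest were Mfap2 (RMS 0.131), Matn2 (0.194), Sod3 (0.198), Cped1 (0.199) and Gypc (0.226). Mfap2, a protein of elastic microfibrils, had mean levels of 1.49 CPM in non-injured cord, 4.76 after SCI, 2.64 with syngeneic and 5.0 with allogeneic cells. The libraries differ in depth and group, and the likeness is a description. Set against the mean profile of the other 9, Slc6a20a was the nearest member (RMS 0.354, rank 151 of 16518 genes), then Slc6a13 (0.368), Crabp2 (0.397), Slc13a4 (0.424) and Foxc1 (0.493). Slc47a1 (0.575), Aldh1a2 (0.581), Tbx18 (0.591) and Slc22a6 (0.699) were farther, and Ptgds was the farthest (1.035), with 30.2% of genes closer.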

How the data were processed

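The authors deposited raw read counts per Ensembl gene, 46078 genes in 12 libraries, per the file headers. The labels' protocols describe silica column RNA with a DNase step and stranded poly(A) libraries. STAR 2.5.1, featureCounts 1.5.1, Trim Galore 0.4.1, StringTie 1.3.3, FastQC 0.11.5, Picard and the build GRCm38 are listed, without role or order, in the submitters' processing notes. The sources used here do not give the annotation release or the strand and multiple-match settings, so genes with overlapping neighbours or close copies are uncertain.

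Genes were kept with filterByExpr (minimum count 10, minimum total 15), which left 16527. Counts were fitted with edgeR 4.0.16 in R 4.3.3 (TMM factors, robust quasi-likelihood, 1 mean per group, 8 residual degrees of freedom), and p-values were adjusted over all genes in each of 6 comparisons (threshold 0.05). The fit was tested on simulated data. CPM use TMM-scaled totals, log2 CPM a prior count of 2, and exon lengths and coordinates GENCODE M21. Intervals and limits for counts cover counting error only (95%, 3 counts for a count of 0). Alternatives were DESeq2 1.42.0, its size factors, library totals, no filter, only the compared groups, and each library left out.

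The 10 genes and all lists were chosen with earlier results of these data known. Named genes are the 10, up to 4 called genes of each pathway list with the largest change after SCI, and the 5 genes most alike in profile. Exceptions are said to be chosen after their values were seen, and so are the marker genes named in brackets. 1 item that these rules cover is not reported here.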

Additional observations from a re-analysis of the deposited data

How the results depend on the processing

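No paired analysis was possible because the labels give no replicate number shared between groups; the numbers used here follow accession order and only name libraries. With 1 library left out, its group kept 2.

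The 743 alternative values were fold changes of the 10 genes, and their medians and counts of the other lists, both added after the data were seen. Of these 640 stayed the same: fold changes kept direction and side of the threshold, counts and medians stayed within 1.5 times. Of the others, 39 lost and 13 gained a call, 32 turned direction and 19 counts moved by over 1.5 times. Only genes called in the main fit could lose a call, 5 for SCI and 6 for allogeneic cells against non-injured cord. Most of the 743 values had no call to lose, so the 39 are not a share of 743. The cause of these changes was not tested. No scaling moved the median of all genes by 0.1 on the log2 scale. Of the 10 genes, with no filter on low counts 2 were called for SCI and 1 for allogeneic cells against non-injured cord, and DESeq2 called 3 for syngeneic cells against non-injured cord. Leaving out 1 library gave 1 to 5 for SCI and 1 to 8 for allogeneic cells against non-injured cord, and 0 to 1 for syngeneic cells against non-injured cord, for syngeneic cells against SCI and for allogeneic against syngeneic cells.

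Over all genes, DESeq2 called 1409 for syngeneic cells against non-injured cord, 126 for syngeneic cells against SCI, 71 for allogeneic cells against SCI and 358 for allogeneic against syngeneic cells. With only the compared groups in the fit these counts were 164, 3, 18 and 21. With no filter, 18 were called for syngeneic and 50 for allogeneic cells against SCI. Against non-injured cord that setting gave 3788 for SCI and 3818 for allogeneic cells. Leaving out 1 library gave 2328 (without SCI library 2) to 3912 for SCI and 2597 (without allogeneic library 2) to 4621 for allogeneic cells against non-injured cord, and 358 (without non-injured library 1) to 1637 (without syngeneic library 2) for syngeneic cells against non-injured cord. It gave 0 to 783 for syngeneic cells and 0 to 29 for allogeneic cells against SCI, and 24 (without syngeneic library 1) to 1031 (without syngeneic library 3) for allogeneic against syngeneic cells. The count of 0 came without SCI library 1, 2 or 3 for allogeneic cells against SCI, and without SCI library 1 or 2 or syngeneic library 1 or 2 for syngeneic cells against SCI. Without non-injured library 1, astrocyte, choroid plexus and endothelium calls for syngeneic cells against non-injured cord went from 3, 1 and 1 to 0 each.

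Fold changes that turned direction were small or rested on 1 library. Slc6a20a for allogeneic cells against SCI was -0.001, and 0.008 with DESeq2, 0.009 with its size factors, 0.007 with library totals and 0.007 with the compared groups alone. With 1 library left out, log2 fold changes of allogeneic cells against SCI ran from -0.108 to 1.052 for Crabp2, -0.245 to 0.347 for Foxc1, -0.435 to 0.352 for Slc13a4, -0.972 to 1.387 for Slc22a6, -0.365 to 3.354 for Slc47a1, -0.632 to 0.198 for Slc6a13 and -0.342 to 0.314 for Slc6a20a. Those of syngeneic cells against non-injured cord ran from -0.446 to 0.232 for Foxc1, -0.278 to 1.224 for Slc6a13 and -0.485 to 0.499 for Tbx18. Slc22a6 ran from -1.287 to 0.673 for syngeneic cells against SCI and from -1.114 to 2.110 for allogeneic against syngeneic cells. Ptgds ran from -0.427 to 0.262 for SCI, -0.397 to 0.291 for syngeneic and -0.208 to 0.664 for allogeneic cells against non-injured cord, from -0.049 to 0.092 for syngeneic and -0.006 to 0.693 for allogeneic cells against SCI, and from -0.015 to 0.663 for allogeneic against syngeneic cells.

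Depth limits Slc22a6, Slc47a1 and Crabp2, which had 1, 14 and 9 counts over the non-injured libraries.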

Other observations

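Slc47a1 in allogeneic library 3 was examined further after its value was seen. For each of 16527 genes, the gap on the log2 CPM scale between allogeneic library 3 and the highest of the other 11 libraries was computed. Slc47a1 ranked 1, with a gap of 3.48 (22.9 CPM, 497 counts, against 1.96 CPM). It was followed by Trdc, a T cell receptor constant gene (5.03 against 0.735 CPM), Tspan11 (6.04 against 1.35), Slc26a7, an anion exchanger (6.18 against 1.42), Inmt, a methyltransferase (3.78 against 1.24), and Msln, a surface protein of mesothelium (3.23 against 1.10). The imprinted transcript H19 (17.8 against 6.48 CPM) and Stra6, the receptor for retinol uptake (22.6 against 8.29 CPM, 491 counts), came next. Of the other 9 genes, Crabp2 (gap 0.51, rank 128), Slc6a20a (0.27, rank 491) and Ptgds (0.11, rank 1292) were also highest in that library, as 13.7% of all genes were. The remaining 6 were not.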
